A study of Ambystoma mexicanum with 2 samples.

Results

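The microRNAs miR-23, miR-24 and miR-27 were examined in small RNA libraries of the Mexican axolotl, one from regenerating tails 3 days post injury (blastema) and one from uninjured tails (control), each condition with 1 library. The members were all family labels of the deposited table that read miR-23, miR-24 or miR-27 with at most 1 letter after the number, which gave 13 of 4563 known labels and 218 of 9277 mirBase entries. mirBase collects microRNA sequences across species, and a label pools the entries of all species under the same name. The labels state that each sample is a pool of tails and give 20 mature axolotls as their source, the control tails being those without any earlier regeneration. The labels give no genotype, and no agent besides the injury, and a tail holds muscle, skin, spinal cord, cartilage and vessels together. A blastema is the growth of progenitor cells under the wound skin from which a new appendage forms.

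In vertebrate genomes these microRNAs lie together in a pair of short clusters, one with miR-23a, miR-27a and a copy of miR-24, the other with miR-23b, miR-27b and another copy of miR-24. The members of a cluster are cut from the same primary transcript, and each hairpin can give a mature strand from its 5′ side (5p) and from its 3′ side (3p). In mammals the clusters have been studied in blood vessels, muscle and blood cells. In mouse and human cells miR-23a targets mRNAs of muscle atrophy and of glutamine use, miR-27b targets Pax3 in muscle precursors, and miR-24 acts on cell cycle genes.

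Known entries are given here by name. Sequences come with the reads that did not map to mirBase, and those in families with a listed partial homology to a member are shown because they are the axolotl reads nearest to these microRNAs whose bases the tables give. The most common sequence of each of 5 such families follows, with the bases after the shared run in capitals. For the miR-24-like families the run is gctcagttcagcaggaac, which all sequences of the largest one hold. For the others it is the run that all sequences of that family hold.
miR-pn4561, similar to miR-24: ggctcagttcagcaggaacAGTT
miR-pn5211, similar to miR-24: ggctcagttcagcaggaacCGTT
miR-pn1031, similar to miR-24: ctggctcagttcagcaggaacCG
miR-pn5519, similar to miR-23: gggttcctggcatgctgattTT
miR-pn5695, similar to miR-27: tcacagtggctaagttctgcaTT
The printed miR-24-like sequences thus shared their body and differed at the ends. This does not hold for all such families, as the most common sequence of miR-pn5022, given further below, differs inside the body.

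The deposited counts summed to 9952885 reads in the blastema library and 12613931 in the control library. A share is the reads of a microRNA over that sum, and the log2 ratio is that of blastema over control shares with 0.5 read added to each count. Intervals are 95% and cover counting error only, with each read taken as independent. PCR copies are not independent molecules, so the intervals can be too narrow. A single library per condition gave neither an error between replicates nor a test. The microRNAs of striated muscle (miR-499, miR-208, miR-206, miR-133 and miR-1) took 14.3% of the blastema reads and 67.4% of the control reads, which bears on every share. Over the 197 known labels with at least 1000 reads the median log2 ratio was 2.08, and the values of the members are read against it. The median over known labels with at least 10 reads was 2.26. Member labels with fewer than 1000 reads belong to that wider set only. In bulk tissue, fewer cells of a type and less RNA per cell cannot be told apart.

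All 3 families took a larger share of the blastema library. By summed reads miR-24 had the highest log2 ratio of the 3, with 86.8% of the abundant labels below it. Together the 3 families had 132758 reads in the blastema and 20691 in the control. This is 1.33% of all reads (1.327 to 1.341) in the blastema and 0.164% (0.162 to 0.166) in the control. Their log2 ratio was 3.02 (3.00 to 3.04), an 8.13-fold larger share in the blastema, and 0.94 above the median of the abundant labels. In the blastema 13 of the 13 labels were higher by 2-fold or more, beside 84.3% of the 3090 known labels whose reads in the libraries summed to 10 or more, a minimum that each of the 13 passed. Lower by 2-fold or more were 0 of the 13, beside 1.84%. With at least 100 reads these numbers were 12 and 0 of 12 labels, beside 85.7% and 3.47%. At least 4-fold higher were 11 of the 13, beside 60.3% of known labels. Each of the 218 entries had a higher share in the blastema by the sum of all reads, as had 90.6% of all known entries. The count of 13 depended on the total. It was 8 when the total left out the muscle microRNAs (46.7% of known labels), 5 with DESeq2 size factors (30.7%) and 3 with edgeR's TMM factors (27%), so that with TMM the members were close to the background. Every log2 ratio fell by 2.14 with TMM and by 1.93 with DESeq2, so that values below these changed sign, among the labels miR-23 without a letter (-0.48 with TMM) and miR-27e (-0.33), and the median of the abundant labels was then -0.06 and 0.15. Under these totals 0 of the 13 were lower by 2-fold or more, beside 7.64%, 14.9% and 18.1% of known labels.

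**Figure D1:**
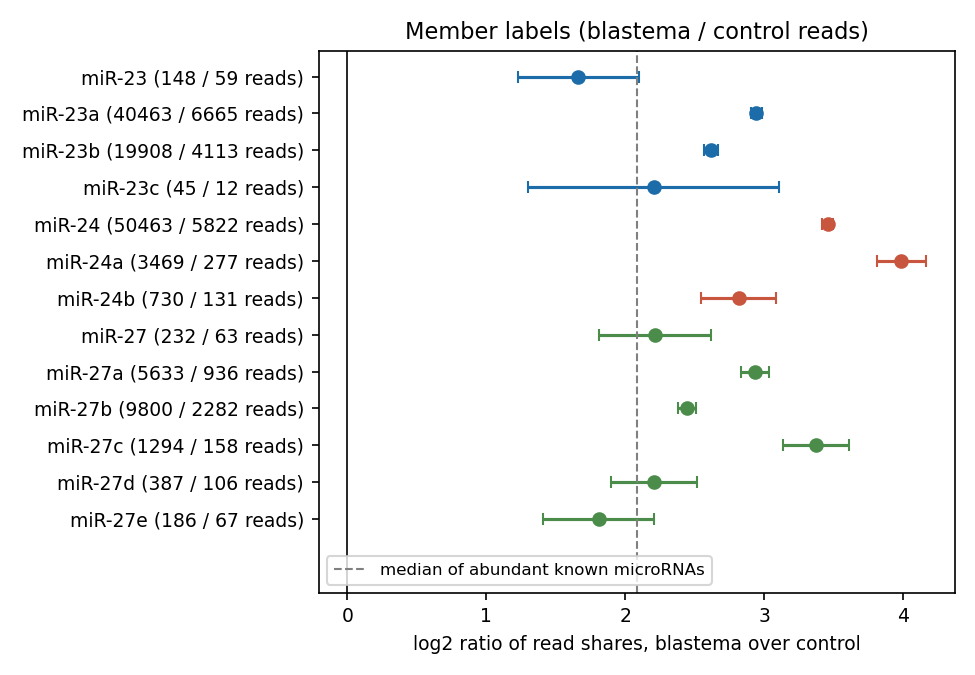
Log2 ratio of the read share, blastema over control, for each of the 13 labels, with counting-error 95% intervals as bars and the blastema and control reads beside each name. All points lie right of 0, and 11 lie right of the dashed line, the median of 2.08 over 197 abundant known microRNAs. miR-23 without a letter and miR-27e lie left of it and would lie below 0 with TMM factors. Their intervals and those of miR-23c, miR-27 without a letter and miR-27d span the line. The points of miR-23c, miR-27 without a letter and miR-27d also lie below 2.26, the median over known labels with at least 10 reads.

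miR-23 was the largest of the families by reads. It had 60564 reads in the blastema, or 0.609% (0.604 to 0.613) of the library, and 10849 in the control, or 0.0860% (0.0844 to 0.0876). This gave a log2 ratio of 2.82 (2.79 to 2.85), which was larger than the counting error, and 68.5% of the abundant labels had a lower one. miR-23a carried most of these reads, with 40463 in the blastema and 6665 in the control and a log2 ratio of 2.94 (2.91 to 2.98). By reads it ranked 26 among the known labels in the blastema and 35 in the control. miR-23b had 19908 blastema reads and 4113 control reads, a log2 ratio of 2.62 (2.57 to 2.67), and ranked 49 and 50. The smaller labels were miR-23 without a letter, with 148 blastema reads and 59 control reads (1.66, 1.23 to 2.10), and miR-23c, with 45 and 12 (2.21, 1.30 to 3.11). Their most-read entries were tgu-miR-23-3p, with 142 and 58, and ggo-miR-23c, with 18 and 7, both below 0 with TMM factors.

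The entries of miR-23a did not move as 1 group. The bat entry efu-miR-23a alone held 13403 blastema reads and 1312 control reads, 33.1% and 19.7% of the label, with a log2 ratio of 3.69, and without it miR-23a gave 2.68. Among the 34 entries of miR-23a with at least 100 reads the median log2 ratio was 2.08 and the lowest was 1.71, for ggo-miR-23a with 233 blastema reads and 90 control reads, which is below 0 with TMM factors. For 27 of these 34 the counting interval excluded the value of the label. The entry with the most reads was thus also the highest of these 34. The frog entries xtr-miR-23a, with 281 blastema reads and 91 control reads (1.96, 1.62 to 2.30), and xtr-miR-23b, with 152 and 48 (1.99, 1.53 to 2.46), lay near the median of the abundant labels and were below 0 with TMM factors. For miR-23b the 39 such entries ran from 1.37 for cgr-miR-23b-3p (139 blastema reads, 68 control reads, below 0 with TMM factors) to 4.19 for mmu-miR-23b-5p (380 and 26). Its entry with the most reads, efu-miR-23b, had 1665 blastema reads and 292 control reads (2.85). Reads that match several near-identical entries can be split among them, and the methods do not say how.

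miR-24 had the highest log2 ratio of the 3 families. Its reads numbered 54662 in the blastema and 6230 in the control, or 0.549% (0.545 to 0.554) and 0.0494% (0.0482 to 0.0506) of the libraries. This is a log2 ratio of 3.47 (3.44 to 3.51), an 11.1-fold larger share in the blastema, and 86.8% of the abundant labels had a lower one. The label miR-24 held 50463 blastema reads and 5822 control reads (3.46, 3.42 to 3.50) and ranked 24 in the blastema and 37 in the control. miR-24a followed with 3469 and 277 reads (3.99, 3.81 to 4.16), and miR-24b with 730 and 131 (2.82, 2.55 to 3.08). The interval of miR-24a lay above that of miR-24, and that of miR-24b below it. These positions depended on the entries under each name. The miR-24a entries ola-miR-24a (3.88) and xtr-miR-24a-3p (4.09) lay near hsa-miR-24-3p (4.05), while the label miR-24 also holds cgr-miR-24-3p (2.67). Most reads of miR-24b came from ssa-miR-24b-3p, without which it was at 3.73 on few control reads. By arm, the 3p entries of miR-24 had 33900 blastema reads and 4087 control reads (3.39) and those that name no arm had 16563 and 1735 (3.60). For miR-24a these were 4.09 and 3.88, and for miR-24b 2.70 and 3.98.

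The miR-24 entries fell into a common level and a lower one that no entry with at least 100 reads bridged. Of 28 such entries, 24 had log2 ratios from 3.40 to 4.09 with a median of 3.89. The human entry hsa-miR-24-3p, with 1740 blastema reads and 133 control reads, was at 4.05, and the frog entry xtr-miR-24a-3p, with 1709 and 127, at 4.09. The medaka entry ola-miR-24a, with 1699 and 146, was at 3.88. Blastema counts of these 24 entries lay between 1576 and 2293, and control counts between 127 and 274. Reads that match several of these entries can be split among them. Their agreement therefore need not come from separate measurements, which was not tested. The other 4 entries ran from 2.62 to 2.98. They were the hamster entry cgr-miR-24-3p with 5636 blastema reads and 1125 control reads, the cobra entry oha-miR-24-3p with 4441 and 917, ipu-miR-24 with 2717 and 437, and ssa-miR-24b-3p with 631 and 122. The lower level held the 3 entries with the most reads, the opposite of miR-23a. These levels were noticed after the values were seen. The label miR-24b rested on ssa-miR-24b-3p, which held 122 of its 131 control reads. Without that entry the label was at 3.73 on few control reads, beside 3.60 for miR-24 without its own most-read entry. No interval was computed for these values. At the low end of the counts, xtr-miR-24b had 20 blastema reads and 0 control reads. Its share was 8.45-fold higher when 3 control reads are set in place of 0. The lower limit of its log2 ratio, which includes the error of the blastema count, was 1.65.

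miR-27 was the smallest family. It had 17532 reads in the blastema, or 0.176% (0.174 to 0.179) of the library, and 3612 in the control, or 0.0286% (0.0277 to 0.0296). Its log2 ratio was 2.62 (2.57 to 2.67), and 61.9% of the abundant labels had a lower one. miR-27b was the larger label, with 9800 blastema reads and 2282 control reads (2.44, 2.38 to 2.51). miR-27a had 5633 and 936 (2.93, 2.83 to 3.03). Unlike in miR-23, where label a had more reads than label b, here label b had more in both libraries. miR-27c, found under this name in frogs and fishes, had 1294 blastema reads and 158 control reads and the highest log2 ratio of the family (3.37, 3.13 to 3.61). This rank rested on the frog entry xtr-miR-27c, with 1187 and 123 reads (3.61, 3.34 to 3.87), or 91.7% of the label in the blastema and 77.8% in the control. Without it miR-27c was at 1.94, below miR-27a and miR-27b.

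The other labels of miR-27 had fewer reads. miR-27 without a letter had 232 blastema reads and 63 control reads (2.21, 1.81 to 2.61), of which tgu-miR-27-3p had 189 and 56 (2.09, below 0 with TMM factors). miR-27d had 387 and 106 (2.21, 1.90 to 2.51), and miR-27e had 186 and 67 (1.81, 1.41 to 2.21). These intervals overlap. The miR-27d entries were ccr-miR-27d with 132 and 37 reads (2.16), ipu-miR-27d with 120 and 27 (2.47), dre-miR-27d with 102 and 38 (1.75, below 0 with TMM factors) and a 3p entry with 33 and 4 (3.24), and those that name no arm summed to 2.13 (below 0 with TMM factors). The miR-27e entry with the most reads, ipu-miR-27e, had 54 and 23 (1.56, below 0 with TMM factors). The 3p entries of miR-27c summed to 95 and 28 reads (2.09, below 0 with TMM factors), and its entries that name no arm to 1199 and 130 (3.54). Single entries of miR-27a and miR-27b spread widely. Of the 28 entries of miR-27a with at least 100 reads, the highest was the lamprey entry pma-miR-27a, with 1224 blastema reads and 114 control reads (3.76), and the lowest ggo-miR-27a, with 77 and 30 (1.69, below 0 with TMM factors). The 34 of miR-27b ran from efu-miR-27b, with 1071 and 401 (1.76, below 0 with TMM factors), to ssc-miR-27b-5p, with 263 and 14 (4.53). The frog entries were 2.80 for xtr-miR-27a (101 blastema reads, 18 control reads) and 2.52 for xtr-miR-27b (215 and 47).

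**Figure D2:**
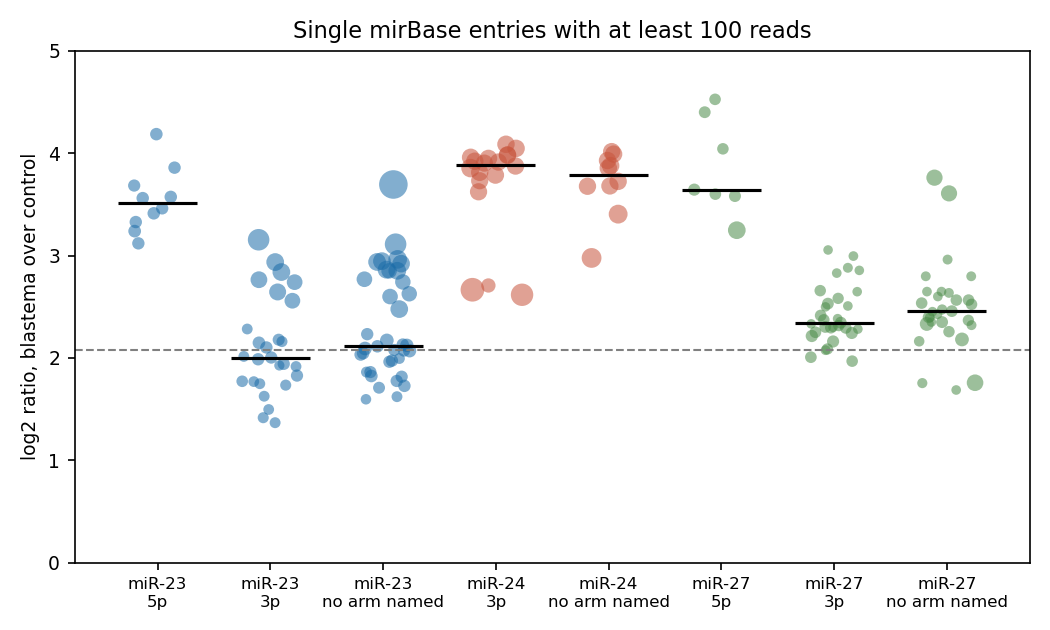
Log2 ratio, blastema over control, of each mirBase entry with at least 100 reads over both libraries, by family and by the arm its name gives. Point area grows with the reads, black lines are medians and the dashed line is the median of 2.08 over abundant labels. The miR-24 points sit near 3.89 apart from 4 between 2.62 and 2.98, and the 5p points of miR-23 and miR-27 lie above most 3p points, while 5p entries with fewer reads, not drawn, reach down to 1.73.

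Since the partners of a cluster share a transcript, their ratios were compared with one another, which does not depend on the library total. The log2 ratio of miR-24 was higher than that of miR-23 by 0.65 (0.60 to 0.70) and higher than that of miR-27 by 0.85 (0.79 to 0.92). That of miR-27 minus that of miR-23 was -0.20 (-0.26 to -0.14). All of these differences were larger than the counting error. In the reads of the 3 families, miR-24 made up 41.2% (40.9 to 41.4) in the blastema and 30.1% (29.5 to 30.7) in the control. miR-23 made up 45.6% (45.4 to 45.9) in the blastema and 52.4% (51.8 to 53.1) in the control, and miR-27 made up 13.2% (13.0 to 13.4) and 17.5% (16.9 to 18.0).

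The place of miR-24 above its partners held when the entry with the most reads of each label was left out, with 0.97 over miR-23 and 1.01 over miR-27. It did not hold when only that entry was used, which gave -0.67 for miR-24 minus miR-23, where efu-miR-23a stood at 3.69 and cgr-miR-24-3p at 2.67. Over the entries with at least 100 reads the median log2 ratio was 3.86 for miR-24, 2.45 for miR-27 and 2.14 for miR-23. Reads can be split among near-identical entries, so these medians depend on how many entries share a sequence. The entries are not independent measurements. By these medians miR-27 was above miR-23, by the summed reads below it. With the frog entries only, miR-27 minus miR-23 was 1.36, and without the most-read entries it was -0.0395. The order of miR-27 and miR-23 thus depended on the entries used.

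**Figure D3:**
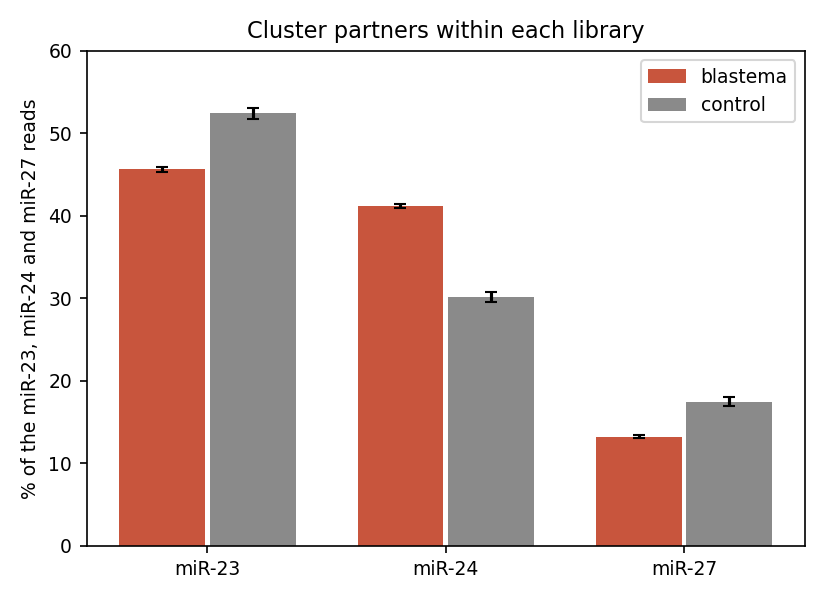
Share of miR-23, miR-24 and miR-27 in the summed reads of the 3 families, in percent, in the blastema library (left bars) and the control library (right bars), with Wilson 95% intervals. The miR-24 bar is 41.2% in the blastema and 30.1% in the control, while the miR-23 and miR-27 bars are lower in the blastema than in the control.

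By summed reads, the labels with the letter a had higher log2 ratios than those with the letter b. miR-23a minus miR-23b was 0.33 (0.27 to 0.39), and miR-27a minus miR-27b was 0.49 (0.37 to 0.61). With entries of the 3p arm only, the differences were 0.29 (0.19 to 0.40) for miR-23 and 0.25 (0.03 to 0.46) for miR-27. With 3p entries and those that name no arm they were 0.46 (0.40 to 0.53) and 0.58 (0.44 to 0.71), and 0.23 and 0.19 when the most-read entry of each label and arm was left out. The size thus rested in large part on the most-read entries. For miR-23 the direction differed by measure. The median over entries with at least 100 reads was 2.08 for miR-23a and 2.56 for miR-23b. These medians compare unlike arms. For miR-23b they include 10 entries of 5p, with a median of 3.51, while those of miR-23a are 3p (12) or name no arm (22). Over entries that name no arm the median was 2.08 for miR-23a and 2.17 for miR-23b, and over 3p entries 2.05 and 1.97. Such medians depend on how many entries share a sequence. For miR-27 the same medians were higher for miR-27a, at 2.62 against 2.37 for miR-27b over all such entries and 2.51 against 2.30 over 3p entries. The a and b forms are nearly identical in vertebrates and the authors allowed 2 mismatches, so reads can be split between them. miR-24 could not be assigned to a cluster, because both copies give the same 3p strand in vertebrates.

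In the lettered labels of miR-23 and miR-27 with entries of both arms, the 5p entries had higher log2 ratios than the 3p entries. For miR-23b, 5p entries had 3646 blastema reads and 401 control reads (3.52, 3.38 to 3.67), and 3p entries had 6004 and 1434 (2.41, 2.32 to 2.49). The difference was 1.12 (0.95 to 1.29), so that 5p made up 37.8% (36.8 to 38.8) of the reads of named arms in the blastema and 21.9% (20.0 to 23.8) in the control. For miR-27b, 5p entries had 1955 and 187 reads (3.72, 3.51 to 3.94) and 3p entries had 3733 and 957 (2.31, 2.20 to 2.41). Here the difference was 1.42 (1.18 to 1.66), and 5p made up 34.4% (33.1 to 35.6) in the blastema and 16.3% (14.3 to 18.6) in the control. Single entries of the arms overlapped. The highest 3p entry of miR-23b was tch-miR-23b-3p (2.76) and the lowest 5p entry was cgr-miR-23b-5p with 52 blastema reads and 10 control reads (2.66). For miR-27b the highest 3p entry was chi-miR-27b-3p (2.66), and 5p entries reached down to 1.73 for aca-miR-27b-5p with 27 and 10 reads and 1.96 for oan-miR-27b-5p with 38 and 12.

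The other arm comparisons rest on fewer reads or entries. miR-23a had 238 blastema reads and 11 control reads of 5p entries (4.72, 3.86 to 5.57), against 9672 and 1883 of 3p entries (2.70, 2.63 to 2.77), a difference of 2.01 (1.16 to 2.87). Its salmon entry ssa-miR-23a-3-5p had 80 blastema reads and 0 control reads, 33.8-fold higher in share by the same floor, with a lower limit of 3.66 for its log2 ratio. With the most-read entry of each arm left out the difference was 1.67. For miR-27a the 5p entries had 1746 and 240 reads (3.20) and the 3p entries 1227 and 265 (2.55), a difference of 0.65 (0.38 to 0.92). This value rests on the zebrafish entry dre-miR-27a-5p, with 1712 blastema reads and 228 control reads. Without the most-read entry of each arm it was -0.71. For miR-23 without a letter the arms were at 2.46 (5p) and 1.63 (3p, below 0 with TMM factors), and for miR-27 without a letter at 2.88 and 2.09 (3p, below 0 with TMM factors). Over these labels 5p minus 3p was 0.83 (-1.77 to 3.43) and 0.79 (-0.41 to 1.99), within the counting error. No miR-24 entry with reads was named 5p.

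Among all 56 known labels with at least 100 reads in 5p and in 3p entries, the 4 lettered labels above included, the median of 5p minus 3p was 0.24, with quartiles of -0.48 and 0.77. It was above 0 for 34 of them. A smaller difference than that of miR-23a was seen in 94.6% of these labels, than that of miR-27b in 91.1%, than that of miR-23b in 85.7% and than that of miR-27a in 67.9%. Entries that name no arm held 30553 of the 40463 blastema reads of miR-23a and 10258 of the 19908 of miR-23b. For miR-27a they held 2660 of 5633, and for miR-27b 4112 of 9800. No arm was assigned to these entries, and the 5p percentages above leave their reads out. They gave log2 ratios of 3.02 for miR-23a, 2.51 for miR-23b, 2.97 for miR-27a and 2.19 for miR-27b.

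**Figure D4:**
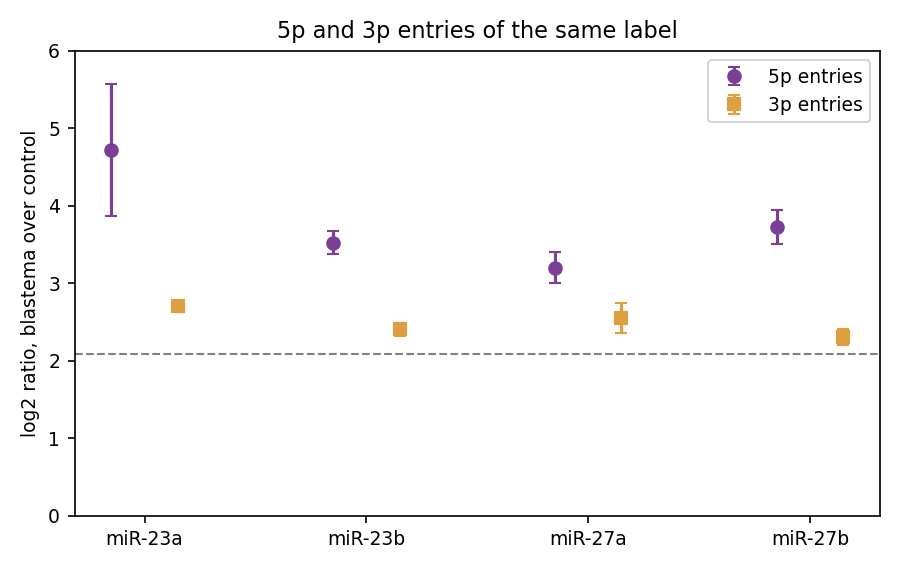
Log2 ratio, blastema over control, of the summed 5p entries (circles) and 3p entries (squares) of miR-23a, miR-23b, miR-27a and miR-27b, with counting-error 95% intervals. The 5p value is above the 3p value for each label, by 0.65 for miR-27a up to 2.01 for miR-23a, and the dashed line is the median of 2.08 over abundant labels.

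Reads that did not map to mirBase held further sequences like these microRNAs. Of the 7785 families of unmapped sequences, which carry the name miR-pn, 17 with 78 sequences have a listed partial homology to a member, 4 to miR-23, 9 to miR-24 and 4 to miR-27. All counts of these families are even numbers, so intervals are given with each count divided by 2. The library totals behind all shares hold the unmapped reads undivided. With known reads only as the total, every log2 ratio was 0.19 higher. The miR-24-like families had 1432 blastema reads and 502 control reads, a log2 ratio of 1.85 (1.64 to 2.06), lower than the 3.47 of mapped miR-24. They amounted to 2.55% of mapped plus unmapped miR-24 reads in the blastema and 7.46% in the control, or 1.29% and 3.87% with the unmapped counts divided by 2. A single sequence, the most common of miR-pn4561, held 464 and 296 of these unmapped reads. The log2 ratio and the percentages rest in large part on it. Among the miR-24-like families with at least 100 reads the log2 ratio ran from 1.34 to 4.21. The miR-23-like families had 534 and 102 reads (2.72, 2.29 to 3.15) and the miR-27-like families 162 and 56 (1.87, 1.24 to 2.47). Over all miR-pn families with at least 10 reads the median log2 ratio was 2.61. The paper states that unmapped sequences were kept above a minimum number of occurrences in either sample. Some listed sequences do not reach it in either library, such as a sequence of miR-pn5022 with 4 reads in each. How the minimum was applied is thus not known. Whether it acted on each library or on their sum, a sequence could enter through the reads of a single library. This can shape the log2 ratios of these families and their median.

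miR-pn4561, printed above and ending in AGTT, was the largest, with 704 blastema reads and 352 control reads and a log2 ratio of 1.34 (1.08 to 1.60). Its most common sequence had 464 and 296 of these reads, and the form that ends in AGTA, ggctcagttcagcaggaacAGTA, had 180 and 48. miR-pn5211 differs from it by A20C, counted from 1 at the 5′ end of the most common sequences with the base of miR-pn4561 first, and had 246 and 78 reads (1.99, 1.47 to 2.50). miR-pn1031, which starts further upstream with ct before the g, had 190 and 16 (3.87, 2.82 to 4.84). miR-pn4562, whose most common sequence is gctcagttcagcaggaacAGAA, had 124 and 8 (4.21, 2.76 to 5.52). The last miR-24-like family with at least 100 reads was miR-pn5022 with 98 and 8 (3.88, 2.41 to 5.19), whose most common sequence differs from the first 21 bases of miR-pn5211 by T8G and C13A. The families led by AGTT and CGTT ends, miR-pn4561 and miR-pn5211, had the lower log2 ratios of these 5, although the intervals of miR-pn5211 and miR-pn5022 overlap. In miR-pn1031, miR-pn4562 and miR-pn5022 each sequence had 4 control reads or fewer. Such sequences can have entered through the blastema alone, so these values allow no contrast by end bases. The only miR-24-like family with fewer reads in the blastema was miR-pn5213, with 14 blastema reads and 40 control reads (-1.14, -2.32 to 0.10).

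The run gctcagttcagcaggaac was found in 32 unmapped sequences, 5 of which are in no family, with 1260 blastema reads and 438 control reads. The next bases were AG in 796 and 358 of these reads, or 63.2% in the blastema and 81.7% in the control, and CG in 232 and 54, or 18.4% and 12.3%. The log2 ratio was 1.49 (1.24 to 1.75) with AG and 2.43 (1.83 to 3.02) with CG. The AG value rested on the most common sequence, ending in AGTT. Without the most common sequence of each, a choice made after the values were seen, AG had 332 and 62 reads (2.75, 2.19 to 3.29) and CG had 156 and 16 (3.59, 2.53 to 4.57), and the intervals overlap. The minimum set for unmapped sequences bears on these values too. For miR-23, the family miR-pn5519 had 504 blastema reads and 96 control reads (2.73, 2.28 to 3.17). Its form ending in TT had 312 and 42 reads, and the form gggttcctggcatgctgattTA had 66 and 34. For miR-27, the largest family was miR-pn2329, with 58 and 18 reads (2.00, 0.92 to 3.03), and miR-pn5695 had 44 and 28 (0.98, 0.02 to 1.93). The remaining families had fewer than 60 reads over both libraries.

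Other clusters served as a measure of how far partners differ. With miR-24 counted in both, the log2 ratios of the cluster of miR-23a, miR-27a and miR-24 spanned 0.53, from 2.93 for miR-27a to 3.46 for miR-24. Those of the cluster of miR-23b, miR-27b and miR-24 spanned 1.01, from 2.44 for miR-27b. Without the most-read entry of each label, miR-23a was at 2.68, miR-27a at 2.81 and miR-24 at 3.60. miR-23b and miR-27b were then at 2.60 and 2.56. The difference between the spans of 0.53 and 1.01 thus rested largely on the most-read entries. Among 8 other clusters fixed as a list, the span was smallest for miR-221 and miR-222 (0.14, 3.25 to 3.39) and largest for the cluster of miR-183, miR-96 and miR-182 (1.85, 1.48 to 3.33). It was 0.95 for the cluster of miR-17 and miR-92a and 0.28 for miR-143 and miR-145. Both spans of the miR-23, miR-24 and miR-27 clusters lay inside the range of these clusters. The listed clusters had 2, 3 or 5 labels with at least 100 reads, and a span can widen with more labels. The other clusters of 3 such labels spanned 0.39, 0.93 and 1.85. Only miR-144 with miR-451 (1.32) and the cluster of miR-183, miR-96 and miR-182 spanned more than 1.01. The highest labels of both had few control reads, with 532 blastema reads and 62 control reads for miR-144 and 178 and 22 for miR-96.

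**Figure D5:**
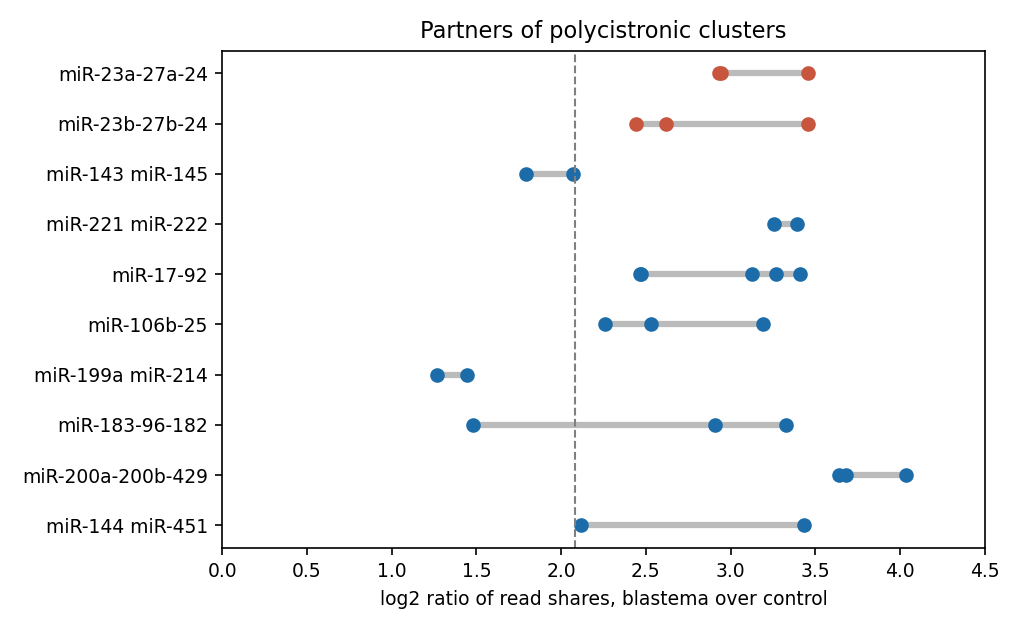
Log2 ratio, blastema over control, of the partner labels with at least 100 reads in 10 polycistronic clusters, each row 1 cluster and each point 1 label. The upper rows are the clusters of miR-23, miR-27 and miR-24, with spans of 0.53 and 1.01 over all entries. The others, with 2, 3 or 5 labels each, span 0.14 to 1.85. The dashed line is the median of 2.08 over abundant labels.

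Marker microRNAs of other cell types are given beside these values. The muscle list, 16 labels, had a log2 ratio of -2.23, with 14 labels at least 2-fold lower and 0 at least 2-fold higher in the blastema. Its labels ran from -2.38 to 0.65, and 1 of them was higher in the blastema. Markers of leukocytes, 8 labels of miR-142, miR-146, miR-155 and miR-223, had 0.262% of the blastema reads and 0.0264% of the control reads (3.31), with 8 of 8 higher and labels from 0.67 to 4.18. Markers of epidermis, 6 labels of miR-203 and miR-205, had 1.51% and 0.154% (3.29), with labels from 2.52 to 3.42. Smooth muscle and fibroblast markers, 3 labels of miR-143 and miR-145, gave 2.03, with labels from 1.79 to 2.23. Of the endothelial marker miR-126, 1 of 3 labels reached 10 reads, and the sum was 333 blastema reads and 170 control reads (1.31). Red cell markers, 4 labels of miR-144 and miR-451, had 1022 and 210 reads (2.62), with 1 label at 0 in the control. With TMM factors the endothelial sum was at -0.83 and the smooth muscle and fibroblast sum at -0.12, and the red cell, epidermal and leukocyte sums were at 0.48, 1.15 and 1.17. The log2 ratio of miR-24 was above these sums, though not above every label in them, and those of miR-23 and miR-27 lay between the endothelial and the leukocyte sums. The part of the marked cell types in the members' values was not tested.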

How the data were processed

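Tissue was pooled into 1 small RNA library per condition. After trimming, the authors used Bowtie 1.1.2 with up to 2 mismatches against mirBase 21 and deposited raw counts per mirBase entry and per unmapped sequence. The paper states a length range for the mapped reads. The most common sequence of miR-pn4561, at 23 bases, is longer than that range. Comparisons of mapped with unmapped reads can therefore set unlike read lengths side by side. The paper's methods do not say how reads that match several entries were counted. The authors also deposited a signal column, their normalized counts, with log2 values and a log2 fold change. None of these was used.

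Counts were summed per label, family and arm as named by the entry. Shares used all deposited reads of a library, with Wilson 95% intervals, and log2 ratios used 0.5 added reads, with Poisson intervals. The limit for a count of 0, 3 reads, is a share of 3.01e-05% in the blastema and 2.38e-05% in the control. Against 0 reads, folds use this limit in place of 0 and leave out the counting error of the other library. Named are every member label and arm, and for each label the entry with the most reads, the highest and lowest with at least 100 reads, the frog entries, and unmapped families with at least 100 reads. Other names were chosen after their values were seen. Members and lists were chosen with earlier results of these data known. Alternatives were other totals (the stated depth, known reads, no muscle microRNAs, edgeR TMM, DESeq2 size factors), other entries and limits. The TMM factors were computed over known labels together with the unmapped families, whose counts were undivided. The DESeq2 size factors were computed over known labels only. No minimum of reads was set for either, so labels with few reads bear on them. Calculations were tested on simulated data. edgeR 4.0.16 and DESeq2 1.42.0 ran in R 4.3.3, the rest in Python 3.11.15 with SciPy 1.17.1, NumPy 2.4.6, pandas 2.3.3 and Matplotlib 3.10.9.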

Additional observations from a re-analysis of the deposited data

How the results depend on the processing

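The log2 ratios of the miR-23, miR-24 and miR-27 families kept their direction under every alternative run, and the differences between partners do not depend on the total. With the stated depth they were 2.20, 2.85 and 2.00, with known reads only 3.01, 3.67 and 2.81, without the muscle microRNAs 1.43, 2.08 and 1.23, with TMM 0.68, 1.33 and 0.48, and with DESeq2 size factors 0.90, 1.55 and 0.69. The number of labels at least 2-fold higher was then 8 without the muscle microRNAs, 3 with TMM and 5 with DESeq2. The median of the abundant labels moved with these totals, to -0.06 with TMM and 0.15 with DESeq2.

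With the entry with the most reads of each label, miR-23 was 3.53 and miR-24 2.86, the differences were -0.67 for miR-24 minus miR-23, -0.87 for miR-27 minus miR-23 and 0.19 for miR-24 minus miR-27, and miR-23, miR-24 and miR-27 made up 55.3%, 28.9% and 15.8% of the blastema reads and 42.5%, 35.4% and 22.1% of the control reads of the families. With frog entries only, the log2 ratios were 1.98, 4.10 and 3.34, the differences 2.13, 1.36 and 0.77, and the shares 11.8%, 47.2% and 41.0% in the blastema and 30.6%, 28.0% and 41.4% in the control. With 3p entries and those that name no arm, miR-23 was 2.78 and miR-27 2.46, miR-27 minus miR-23 was -0.32, miR-24 minus miR-27 was 1.02, and the shares were 45.3%, 43.7% and 11.0% in the blastema and for miR-24 and miR-27 31.4% and 16.0% in the control. With entries of at least 100 reads, miR-24 and miR-27 made up 41.6% and 12.6% in the blastema and miR-27 made up 16.5% in the control. With unmapped families added, miR-24 was 3.40, miR-24 minus miR-23 0.58 and miR-24 minus miR-27 0.79, and miR-23 and miR-24 made up 45.3% and 41.6% in the blastema and 51.3% and 31.5% in the control. Without the entry with the most reads of each label, an alternative chosen after seeing the data, miR-23 was 2.65 and miR-24 3.61, the differences were 0.97, -0.0395 and 1.01, and the shares were 43.1%, 44.4% and 12.5% in the blastema and 54.8%, 28.9% and 16.4% in the control. Other alternatives moved these values by less than the counting error.

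Low labels and entries changed direction with the total. With TMM the log2 ratio was -0.48 for miR-23 without a letter, -0.33 for miR-27e, and for 3p entries -0.52 for miR-23, -0.0542 for miR-27 and -0.0556 for miR-27c, and it was -0.00995 for miR-27d entries that name no arm. Of 29 named entries it was -0.77 for cgr-miR-23b-3p, -0.39 for dre-miR-27d, -0.38 for efu-miR-27b, -0.43 for ggo-miR-23a, -0.50 for ggo-miR-23c, -0.455 for ggo-miR-27a, -0.59 for ipu-miR-27e, -0.52 for tgu-miR-23-3p, -0.0542 for tgu-miR-27-3p, -0.18 for xtr-miR-23a and -0.15 for xtr-miR-23b. With DESeq2 size factors it was -0.27 for miR-23, -0.12 for miR-27e, -0.30 for miR-23 3p entries and tgu-miR-23-3p, -0.56 for cgr-miR-23b-3p, -0.17 for dre-miR-27d and efu-miR-27b, -0.22 for ggo-miR-23a, -0.28 for ggo-miR-23c, -0.24 for ggo-miR-27a and -0.37 for ipu-miR-27e. Without the muscle microRNAs, cgr-miR-23b-3p was -0.0261. For miR-27a, 5p minus 3p was -0.71 without the most-read entry of each arm, where 1 entry of the 5p arm is left. Apart from totals, the cause of these changes was not tested. No paired analysis was possible because each condition has 1 library.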
